A study of Mus musculus with 58 samples.

Results

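The genes described here are 38 interferon-stimulated and antigen-processing genes of the mouse, listed by name and located in the count table by Ensembl identifier. All 38 were found among the 56953 genes of the table, and 37 of them belonged to the 12464 genes that had 5 reads or more in over 3 libraries and were tested. The remaining member was Mx1 (ENSMUSG00000000386.19), a dynamin-like antiviral GTPase whose gene is defective in C57BL/6 mice, with 46 reads spread over 18 of the 58 libraries. By role the list held 4 transcription factors, 5 RNA sensors and ISG15-system genes, 16 antiviral effectors, 3 genes of ADP-ribosylation and its ubiquitin ligase, 6 GBP and IRG GTPases, and 4 genes of the immunoproteasome and MHC class I.

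Interferons are cytokines that cells release on sensing viral nucleic acid. Type I and type II interferon (interferon gamma) act through cell-surface receptors and JAK kinases on transcription factors that enter the nucleus, and both raise large sets of genes that block virus replication, feed back on the pathway and load peptides onto MHC class I. Fibroblasts and other stromal cells keep a resting level of these genes without infection.

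Bulk Smart-seq3, which copies whole transcripts to cDNA, was used on adipose stem cells (ASC) FACS-sorted from inguinal white adipose tissue (iWAT) of C57BL6/J mice. Sorted cells lacked the leukocyte marker CD45 and the endothelial marker CD31 and carried CD34, and were collected as ASC1 without DPP4 or as ASC2 with DPP4 on the surface. Castration of males and ovariectomy of females took place at 4 weeks of age, and these mice and the controls of both sexes were terminated at 10 weeks after a 4-hour fast, with 8 mice per condition by the study's methods. ASC1 gave 7 libraries from control males, 8 from castrated males, 8 from control females and 3 from ovariectomized females, and ASC2 gave 8 from each, 58 in total. The labels name neither the mouse behind a letter nor whether controls were sham-operated. Libraries of controls carry the letters A to H in their labels and those of gonadectomized mice the letters I to P. Levels are given as CPM, read counts relative to the size of each library after TMM scaling. In such bulk samples, fewer cells of a type and less RNA per cell cannot be told apart, and p-values measure the spread between libraries.

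Total counts per library lay between 106562 and 1421518 (median 682400), and the 3 ovariectomized ASC1 libraries held 1114321 (L), 256555 (N) and 188591 (P). In 27 of the 58 libraries, Xist, the summed Y-linked transcripts or both went against the sex in the label, at a limit of 10 CPM for each. Of these, 16 were labelled male and 11 labelled female. Every control male ASC2 library held 12.6 CPM or more of Y-linked transcripts, so those against the label failed by Xist alone. The label was met by 3 of 7 control male, 0 of 8 castrated, 3 of 8 control female and 3 of 3 ovariectomized libraries in ASC1, and by 4 of 8, 8 of 8, 2 of 8 and 8 of 8 in ASC2. Groups keep the names of their labels here. Results on the libraries that met their label are also given for castration and sex in ASC2 and for ovariectomy in ASC1. They are given as well for the difference of the ovariectomy effect and for ASC2 against ASC1 in control males. The other comparisons are not given on label-matched libraries. Dpp4 had group means of 6.80 to 27.7 CPM in ASC1 and 91.9 to 248 CPM in ASC2. The ovariectomized ASC1 libraries stood apart: 4 fibroblast markers summed to between 43144 and 45105 CPM, against 3024 to 13976 CPM in all other libraries, and 8 macrophage markers to between 45.7 and 92.9 CPM with Adgre1 at 0, against 574 to 6629 CPM elsewhere. Of these 8, Cd14 was not lower, with a median of 18.6 CPM against 8.58 to 17.7 CPM in the other groups. Cd34, the marker of the sort, was between 1372 and 1782 CPM in them and at most at 346 CPM in any other ASC1 library. A difference in the sorted cells and an effect of ovariectomy cannot be told apart in this group. Summed markers of lymphocytes and plasmacytoid dendritic cells, the cells that make most type I interferon, were between 1.36 and 52.2 CPM in every library, those of endothelial cells between 0 and 148 CPM and those of adipocytes between 0 and 30.6 CPM.

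The sequences on which interferon-activated factors act were looked up in the RefSeq promoter table (GRCm38.p6), in the 250 bases before the annotated start of 28 members that it held. The letters GAAA followed, after any 2 bases, by GAAA again are the core of the interferon-stimulated response element (ISRE) and stood on either strand in 14 of the 28 members (50%) and in 936 of 27025 genes (3.46%). The letters TTCNNNGAA, the core of the gamma-activated sequence, read the same on both strands and stood in 7 members (25%) against 8.13% of all genes. Both were present in 4 members and at least 1 of them in 17. The windows of 60 bases below are shown for members that carry the comparisons that follow, 5′ to 3′ on the gene's strand, with every match of the motif shown in capitals, overlapping matches running together. An ISRE core on the opposite strand reads TTTC, any 2 bases, TTTC.
Isg15 (chr4:156200850-156200909, minus strand): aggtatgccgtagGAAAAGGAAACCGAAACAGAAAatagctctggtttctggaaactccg
Bst2 (chr8:71537562-71537621, minus strand): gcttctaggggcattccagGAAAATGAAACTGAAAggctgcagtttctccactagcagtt
Ifit1 (chr19:34640779-34640838, plus strand): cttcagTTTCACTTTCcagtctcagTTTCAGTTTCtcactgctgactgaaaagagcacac
Gbp2 (chr3:142620579-142620638, plus strand): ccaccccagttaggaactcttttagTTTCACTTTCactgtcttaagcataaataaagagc
Gbp3 (chr3:142559980-142560039, plus strand): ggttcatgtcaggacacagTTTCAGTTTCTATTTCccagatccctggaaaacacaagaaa
Irgm1 (chr11:48871421-48871480, minus strand): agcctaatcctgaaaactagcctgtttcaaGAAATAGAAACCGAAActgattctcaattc
B2m (chr2:122147523-122147582, plus strand): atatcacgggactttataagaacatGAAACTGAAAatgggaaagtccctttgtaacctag
Irf1 (chr11:53769898-53769957, plus strand): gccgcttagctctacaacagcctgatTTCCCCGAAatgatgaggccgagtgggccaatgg
Ifit2 (chr19:34550444-34550503, plus strand): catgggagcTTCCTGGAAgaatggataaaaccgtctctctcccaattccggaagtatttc
The last 2 windows show TTCNNNGAA and the others the ISRE core, and the Bst2 window also holds TTCNNNGAA, which overlaps the ISRE core and is not marked apart. These matches describe the letters of the windows only.

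Levels of most members differed among the 8 groups. In the quasi-likelihood test of edgeR over all 8 groups, 30 of the 37 tested members passed an adjusted p of 0.05 (Benjamini-Hochberg), against 47.8% of all genes tested, with Ifi27 (adjusted p = 2.84e-13), Psmb9 (1.44e-06) and Ifit2 (2.64e-06) at the smallest p. The 7 members that did not pass were Ifitm3, Psmb8, Dtx3l, Irf9, Tap1, Mx2 and Rsad2. Group medians of each member called in any comparison, and of the members of highest mean level in each role, are given below for control male, castrated, control female and ovariectomized libraries in that order.

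Among the transcription factors, Stat2, a subunit of the type I interferon complex, had medians of 66.9, 69.3, 57.5 and 5.71 CPM in ASC1 and 66.0, 41.5, 47.6 and 39.9 CPM in ASC2. Irf9, its DNA-binding partner, had 91.5, 86.8, 78.0 and 96.0 CPM in ASC1 and 106, 81.2, 78.0 and 75 CPM in ASC2. Irf7, the factor that amplifies type I interferon production, had 278, 325, 207 and 51.4 CPM in ASC1 and 364, 135, 194 and 131 CPM in ASC2. Irf1, a factor induced by interferon gamma that drives MHC class I genes, went the other way from Stat2 and Irf7 in ovariectomized ASC1. Its medians were 68.8, 42.2, 47.0 and 92.9 CPM in ASC1 and 81.9, 49.4, 60.6 and 49.1 CPM in ASC2.

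Of the sensors and the ISG15 system, Dhx58, which encodes the RNA sensor LGP2, had 55.5, 53.8, 22.5 and 12.4 CPM in ASC1 and 63.0, 23.1, 29.3 and 24.5 CPM in ASC2. Isg15, a ubiquitin-like modifier, had 396, 357, 184 and 24.8 CPM in ASC1 and 217, 151, 131 and 127 CPM in ASC2. Usp18, the protease that removes ISG15 and dampens the receptor, had 97.7, 112, 55.8 and 37.7 CPM in ASC1 and 229.9, 91.7, 92 and 62.2 CPM in ASC2. In Dhx58 and Usp18 the highest median of the 8 groups was that of control male ASC2. The other members of this role, the sensors Ifih1 and Zbp1, had group medians between 26.6 and 44.4 CPM and between 38.2 and 165 CPM.

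The antiviral effectors spanned the widest range of levels. Ifit1 and Ifit2 encode proteins that bind foreign RNA and restrain translation. Median Ifit1 was 57.7, 87.2, 43.7 and 55.1 CPM in ASC1 and 118, 41.6, 56.8 and 26.3 CPM in ASC2. Median Ifit2 (ENSMUSG00000045932.13) was 13.3, 11.8, 10.8 and 18.4 CPM in ASC1 and 46.7, 11.3, 15.6 and 15.7 CPM in ASC2, so that control male ASC2 stood above the other 7 groups. Oas2 and Oasl2 belong to the oligoadenylate synthetase family, whose proteins bind double-stranded RNA. Oas2 had 20.4, 36.5, 23.2 and 4.57 CPM in ASC1 and 29.4, 11.9, 11.3 and 9.03 CPM in ASC2. Oasl2 had 168, 167, 80.3 and 41.3 CPM in ASC1 and 167, 75.5, 103 and 78.9 CPM in ASC2. Ifi44, an antiviral gene of few reads here, had 11, 29.6, 13.8 and 0 CPM in ASC1 and 21.5, 6.42, 4.42 and 6.59 CPM in ASC2.

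Bst2 encodes tetherin, which holds budding virions at the cell surface. Its medians were 843, 1205, 788 and 202 CPM in ASC1 and 462, 322, 367 and 516 CPM in ASC2. Ifitm3, which blocks the entry of enveloped viruses, had medians of 2916, 2666, 2967 and 1978 CPM in ASC1 and 2156, 2123, 1880.0 and 2075 CPM in ASC2. Ifi27 (ENSMUSG00000064215.14), an interferon-inducible gene of the ISG12 family, had 280.2, 129, 253 and 619 CPM in ASC1 and 277, 333, 277 and 221 CPM in ASC2. Its lowest and its highest median thus both lay in ASC1 of gonadectomized mice. The other tested effectors, Ifit3, Oas1a, Oas3, Mx2, Rsad2, Ifi35 and Xaf1, ranged in group medians from 0 CPM for Oas3, Mx2 and Rsad2 in ovariectomized ASC1 to 284 CPM for Ifit3 in control male ASC2. Reads of Ifit3 and of Oas1a may be shared with near-identical neighbours, Ifit3b and Oas1g, and their levels are uncertain for that reason, as are those of Iigp1 and Irgm1.

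Parp9 and Parp14, ADP-ribosyltransferases of the interferon response, had group medians of 29.8 to 56.7 CPM and 21.7 to 69.8 CPM, and Dtx3l, the ubiquitin ligase that partners Parp9, had 18.4 to 40.9 CPM. The medians of Parp9 were 38.2, 56.7, 40.5 and 37.2 CPM in ASC1 and 44.4, 29.8, 30.9 and 30.8 CPM in ASC2. Those of Parp14 were 48.0, 69.8, 37.8 and 21.7 CPM in ASC1 and 31.8, 45.8, 35.7 and 39.2 CPM in ASC2. None of the 3 passed the threshold in any comparison of 2 groups.

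The GBP and IRG GTPases are induced foremost by interferon gamma and attack the vacuoles of intracellular pathogens. Gbp2 had medians of 46.8, 32.5, 30.7 and 106 CPM in ASC1 and 69.3, 31.5, 36.8 and 22.7 CPM in ASC2. Gbp3 had 28.9, 40.7, 35.0 and 36.7 CPM in ASC1 and 52.3, 18.9, 22.1 and 17.6 CPM in ASC2. Gbp7, with few reads, had 14, 11.4, 13.6 and 36.7 CPM in ASC1 and 19.4, 13.2, 8.56 and 12.4 CPM in ASC2. In ASC2 all 3 had their highest median in control males. The same held for the IRG members. Igtp had 44.4, 47.7, 25.1 and 36.6 CPM in ASC1 and 67.5, 29.1, 39.5 and 21.0 CPM in ASC2. Irgm1, the regulator of the other IRG proteins, had 108, 145, 80.4 and 43.4 CPM in ASC1 and 132, 87.5, 59.2 and 77.9 CPM in ASC2. Iigp1 (ENSMUSG00000054072.13), an effector IRG protein, had 24.2, 24.8, 22.5 and 78.0 CPM in ASC1 and 63.1, 16.6, 31.2 and 14 CPM in ASC2.

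In the antigen-processing role, Psmb8 and Psmb9 encode catalytic subunits of the immunoproteasome. Psmb8 had medians of 138, 127, 98.5 and 161 CPM in ASC1 and 95.7, 88.3, 99 and 101 CPM in ASC2. Psmb9 (ENSMUSG00000096727.4) had 25, 17.4, 18.1 and 85.7 CPM in ASC1 and 22.8, 19.9, 21.0 and 17.4 CPM in ASC2. B2m (ENSMUSG00000060802.9), the light chain of MHC class I, had 1015, 1107, 948 and 2579 CPM in ASC1 and 1030.0, 709.9, 1037 and 734 CPM in ASC2. For Psmb9 and B2m the ovariectomized ASC1 median stood above those of all other groups, which lay between 17.4 and 25 CPM for Psmb9 and between 709.9 and 1107 CPM for B2m. Tap1, which carries peptides into the endoplasmic reticulum, had group medians between 19.4 and 49.5 CPM.

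**Figure D1:**
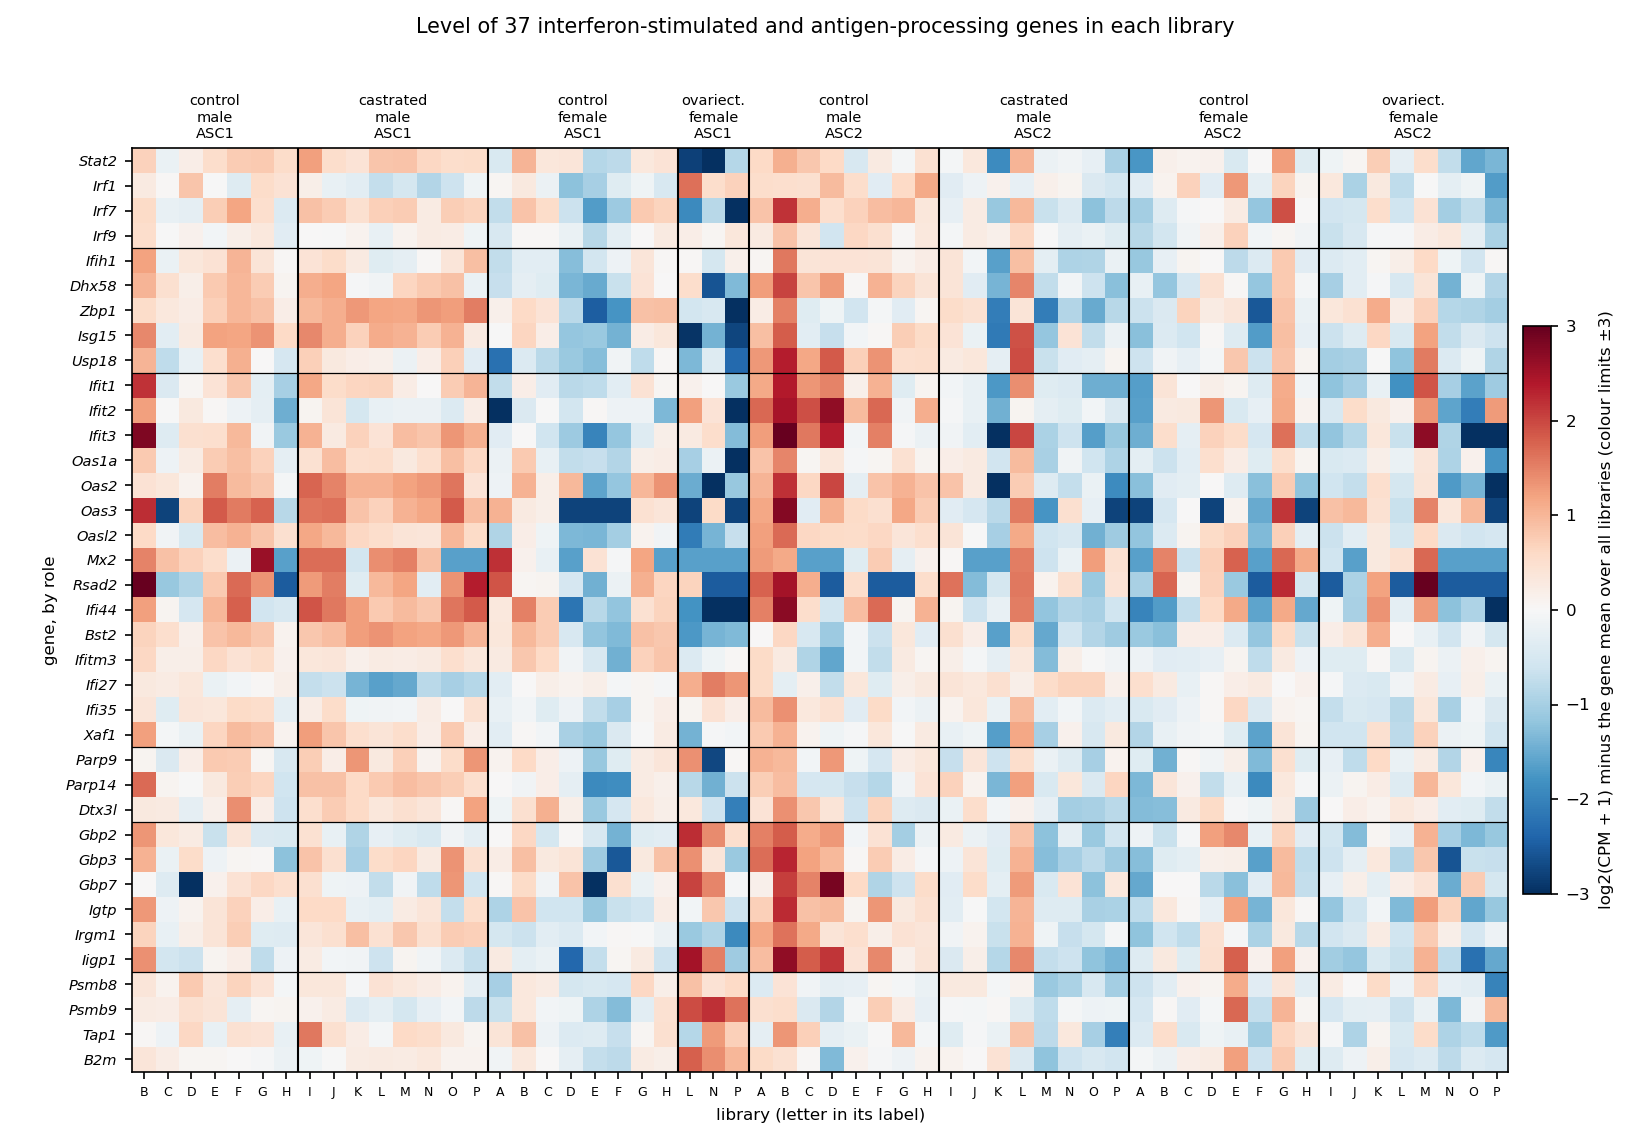
Level of the 37 tested members (rows, grouped by role) in each of the 58 libraries (columns, grouped by population and condition), as log2(CPM + 1) minus the mean of that gene over all libraries, with colour limits at ±3. Whole columns are high or low together, such as control male ASC2 library B, the highest of all 58 libraries for 17 members.

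Members moved together in single libraries. The mean of log2(CPM + 1) over the 37 members was between 4.64 and 7.34 per library, and within ASC2 each group held at least 1 library well above its median. In control male ASC2 the lowest, median and highest library means were 5.87, 6.13 and 7.34, and in castrated male ASC2 4.86, 5.32 and 6.67. In control female ASC2 they were 4.83, 5.61 and 6.60, and in ovariectomized ASC2 4.64, 5.29 and 6.56. The highest libraries were B, L, G and M in that order, and in them 35, 34, 36 and 35 of the 37 members lay above their own group median. Total counts of these 4 libraries were 1095450, 617317, 571441 and 875272. At the other end, 2 members were above the median in library A and 3 in library F of control female ASC2.

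Single members showed the same libraries. Irf7 was at 891 CPM in control male ASC2 library B and at 753 CPM in control female ASC2 library G, against group medians of 364 and 194 CPM. Ifit3 reached 1023 CPM in the former, 434 CPM in castrated library L and 705 CPM in ovariectomized ASC2 library M, against medians of 284, 62.7 and 58.6 CPM. In ASC1 the library means lay between 6.0 and 6.52 in castrated males, 5.44 and 6.74 in control males, and 4.70 and 6.11 in control females. The 3 ovariectomized ASC1 libraries had means of 5.59 (L), 5.36 (N) and 4.76 (P). The summed macrophage markers were between 5374 and 6483 CPM in libraries B, C and D of control male ASC1, in which 28, 5 and 9 members were above their group median, and between 583 and 689 CPM in libraries E to H, in which 21, 28, 18 and 2 were.

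**Figure D2:**
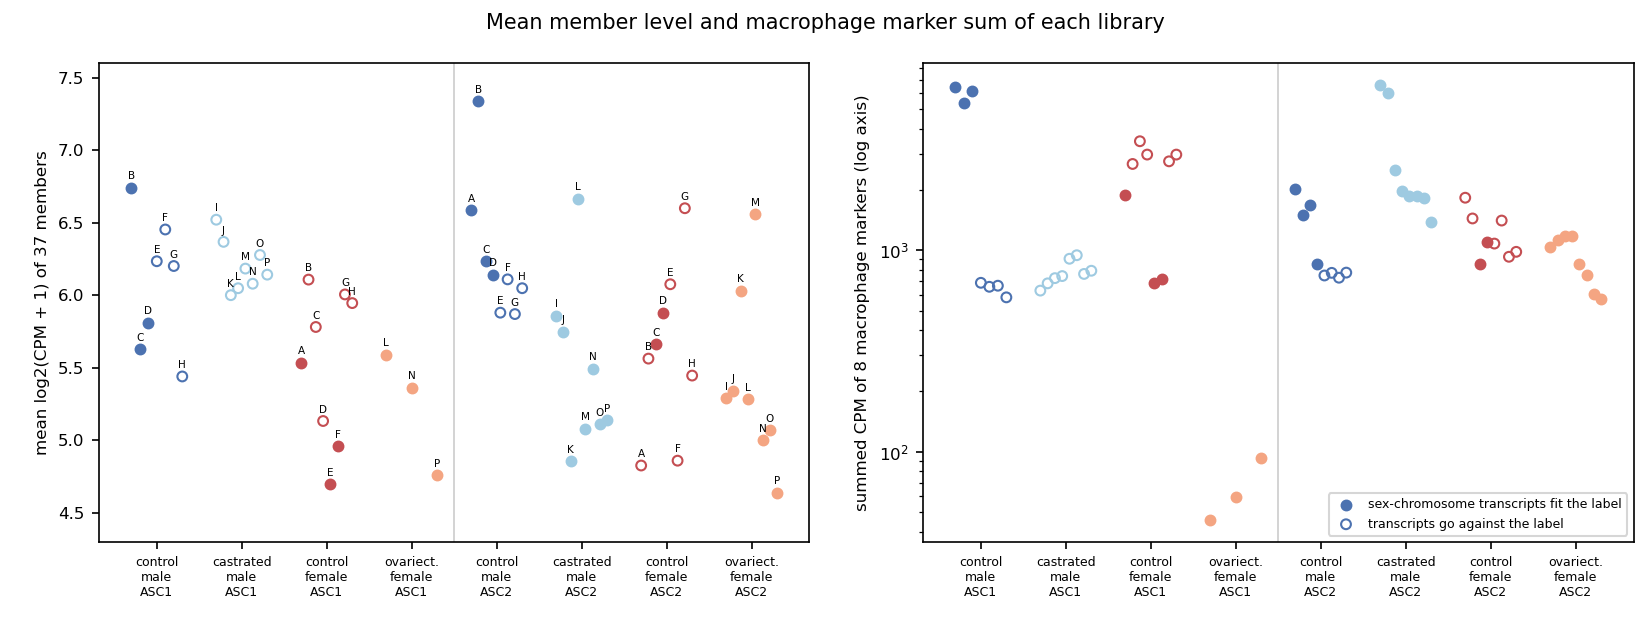
Left, mean log2(CPM + 1) of the 37 tested members in each library, with the letter of its label; right, summed CPM of 8 macrophage markers on a log axis. Each point is 1 library, filled where sex-chromosome transcripts met the label and open where they did not; control male ASC2 library B is highest on the left at 7.34 and the 3 ovariectomized ASC1 libraries are lowest on the right, between 45.7 and 92.9 CPM.

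Castration was compared with control to ask how loss of the testes bears on these cells. In ASC2, 13 of the 37 tested members fell and none rose, against 4.32% of all genes tested that were called lower, 2.65% called higher and 6.96% in either direction. The members that fell were 5 of 6 GTPases, 5 of 15 tested antiviral effectors, 2 of 4 transcription factors and 1 of 5 sensor genes, and none was an ADP-ribosylation or MHC class I gene. Log2 fold changes were below 0 for 34 of 37 members and for 49.6% of all genes, with a median of -0.69 over members and 0.00 over all genes. Among members that fell, the largest change was that of Ifit2, which ranged from 12.6 to 91.5 CPM (median 46.7) in control and from 4.35 to 14.4 CPM (median 11.3) in castrated libraries. It was 4.33-fold lower after castration (log2 fold change -2.11, standard error (SE) 0.37, adjusted p = 1.22e-04, edgeR). All 8 castrated libraries lay below the control median, and 5 of them below every control library.

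Iigp1 was next among the members that fell. It ranged from 29.9 to 175 CPM (median 63.1) in control and from 9.70 to 75 CPM (median 16.6) in castrated libraries, and its log2 fold change was -1.65 (SE 0.39, adjusted p = 0.00517, edgeR). Of the castrated libraries 6 lay below every control library, and library L alone was above the control median. Irgm1 ranged from 108 to 298 CPM in control and from 58.2 to 198 CPM in castrated libraries, a change of -0.84 (SE 0.23, adjusted p = 0.0174). Igtp ranged from 41.0 to 185 CPM in control and from 19.2 to 79.8 CPM in castrated libraries, with -1.21 (SE 0.34, adjusted p = 0.0190). For both, 7 of 8 castrated libraries were below all controls and L was the exception. Gbp3 had 27.3 to 142 CPM in control and 11 to 59.0 CPM in castrated libraries (-1.31, SE 0.38, adjusted p = 0.0237). Gbp2 had 18.9 to 139.9 CPM against 16.1 to 71.8 CPM (-1.07, SE 0.35, adjusted p = 0.0483). The remaining GTPase, Gbp7, had -1.13 (SE 0.44) and did not pass, with an adjusted p of 0.110.

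Among the transcription factors Irf7 ranged from 249 to 891 CPM in control and from 83.1 to 388 CPM in castrated ASC2 (log2 fold change -1.28, SE 0.35, adjusted p = 0.0161, edgeR). All castrated libraries but L lay below every control. Irf1 ranged from 44.5 to 127 CPM in control and from 38.8 to 63.3 CPM in castrated ASC2, and changed by -0.75 (SE 0.23, adjusted p = 0.0341). Every castrated library was below the control median of Irf1, and only 2 were below all controls. Dhx58 had 33.2 to 136 CPM in control and 11.6 to 91.0 CPM in castrated libraries (-1.09, SE 0.32, adjusted p = 0.0276). Stat2 and Irf9 had changes of -0.52 (SE 0.29) and -0.31 (SE 0.18) that did not pass (adjusted p = 0.297 and 0.304).

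The other antiviral effectors that fell were Ifit1, Oas2, Oasl2 and Ifi44, by 1.34, 1.33, 0.98 and 1.48 on the log2 scale (adjusted p = 0.0396, 0.0262, 0.0272 and 0.0493). Ifit1 ranged from 42.5 to 288 CPM in control and from 16 to 147 CPM in castrated libraries, and Oas2 from 12 to 71.4 CPM and from 0 to 27.4 CPM. Oasl2 ranged from 142 to 359.8 CPM in control and from 40.0 to 244 CPM in castrated libraries. Ifi44 had 6.69 to 73.3 CPM against 4.02 to 31.9 CPM. Groups overlapped in all 4, and for each at least 7 castrated libraries were below the control median. Ifit3, of the same family as Ifit1 and Ifit2, missed the threshold with -1.72 (SE 0.57, adjusted p = 0.0506). Ifitm3 had 0.05 (SE 0.22) and B2m -0.33 (SE 0.21), with adjusted p of 0.936 and 0.368.

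The result depended on which control libraries entered it. All 8 castrated ASC2 libraries met the sex in their label, as did control libraries A to D. Ifit2 was between 46.7 and 91.5 CPM in A to D and at most at 46.7 CPM in E to H. The Y-linked transcripts of E to H met the limit for males, and Xist alone went against the label. The lowest Y-linked sum in control male ASC2 was 12.6 CPM, close to that limit, against 55.9 to 100 CPM in castrated ASC2. Xist in control male ASC2 reached 73.9 CPM, against 25.7 to 83.5 CPM in ovariectomized ASC2. Gbp2 was between 85.6 and 139.9 CPM in A to D and between 18.9 and 53.0 CPM in E to H, and the same order without overlap held for Gbp3, with 55.8 to 142 CPM against 27.3 to 48.8 CPM. Against A to D alone, 14 members fell with a median change of -1.06, Ifit2 by 2.60 (adjusted p = 1.01e-04) and Iigp1 by 2.18 (adjusted p = 0.00332), while Irf1 and Ifi44 missed the threshold (adjusted p = 0.0849 and 0.0523). Against E to H alone, a setting chosen after seeing the data, no member passed the edgeR test, 4 had an unadjusted p below 0.05, and the median change was -0.32. Ifit2 then had -1.34 (adjusted p = 0.0944) and Gbp2 -0.01 (adjusted p = 0.999). Without control library B, 2 members remained called, Ifit2 and Iigp1, and the count was 8 without control library D and 7 without each of the castrated libraries K, M, N, O and P. With only the 2 groups compared in the fit it was 4, namely Irf7, Ifit2, Igtp and Iigp1. Summed macrophage markers, all 8 of them with reads in both groups, were between 730 and 2012 CPM in control and between 1387 and 6629 CPM in castrated ASC2 (medians 814 and 1919 CPM). The 4 fibroblast markers summed to between 7047 and 11584 CPM in control and between 3024 and 6641 CPM in castrated ASC2, without overlap, and Cd34 and Dpp4 had medians of 934 and 241 CPM in control and 401 and 111 CPM in castrated libraries. The 6 endothelial markers, all with reads in both groups, summed to between 14.8 and 63.6 CPM and between 60.7 and 148 CPM. The 7 lymphocyte and plasmacytoid dendritic cell markers summed to between 2.12 and 24.1 CPM in control and, with Siglech at 0, between 14.1 and 52.2 CPM in castrated ASC2, where the B cell marker Cd79a had a median of 11.5 CPM against 0 CPM. The part of these cell types in the result was not tested.

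In ASC1, 1 member was called lower after castration and none higher, against 1.30% of all genes lower, 1.06% higher and 2.36% in either direction. The median change over members was 0.04. Ifi27 was between 214 and 312 CPM (median 280.2) in control and between 78.8 and 157 CPM (median 129) in castrated ASC1. The groups did not overlap, and the fold change was 2.24-fold lower (log2 fold change -1.16, SE 0.16, adjusted p = 1.33e-06, edgeR). With only these 2 groups in the fit, 4 members were called, 2 in each direction. The call of Ifi27 held under all 5 other settings and when any of the 15 libraries was left out. No castrated ASC1 library met the sex in its label, so a comparison within label-matched libraries could not be made. Against the 4 control libraries that also went against the label, Ifi27 had -1.02 (adjusted p = 2.98e-04).

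The castration effect itself differed between the populations for 4 members, 3 with a lower and 1 with a higher effect in ASC2, against 0.883% of all genes lower, 1.53% higher and 2.41% in either direction. Castrated ASC1 libraries had Xist at 51.9 to 118 CPM and Y-linked transcripts at 0 to 4.72 CPM, all against their label. Castrated ASC2 libraries had 0 to 7.99 CPM and 55.9 to 100 CPM, all meeting it. A difference in castration effect and one in the sex of the cells by these transcripts cannot be told apart here. Ifi27 had 0.36 (SE 0.15, adjusted p = 0.126) in ASC2 against -1.16 in ASC1, a difference of 1.52 (SE 0.22, adjusted p = 1.24e-05, edgeR). This difference held when any of 31 libraries was left out. The differences of Ifit2, Oas2 and Irgm1 were -1.93, -1.95 and -1.27 (adjusted p = 0.0446, 0.0388 and 0.0224). The count of 4 fell to 1 without control male ASC2 library B or control male ASC1 library C, and rose to 9 without castrated ASC2 library L. It was 2 without control male ASC1 library D or H, castrated ASC1 library I, or castrated ASC2 library K, M, N or P.

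**Figure D3:**
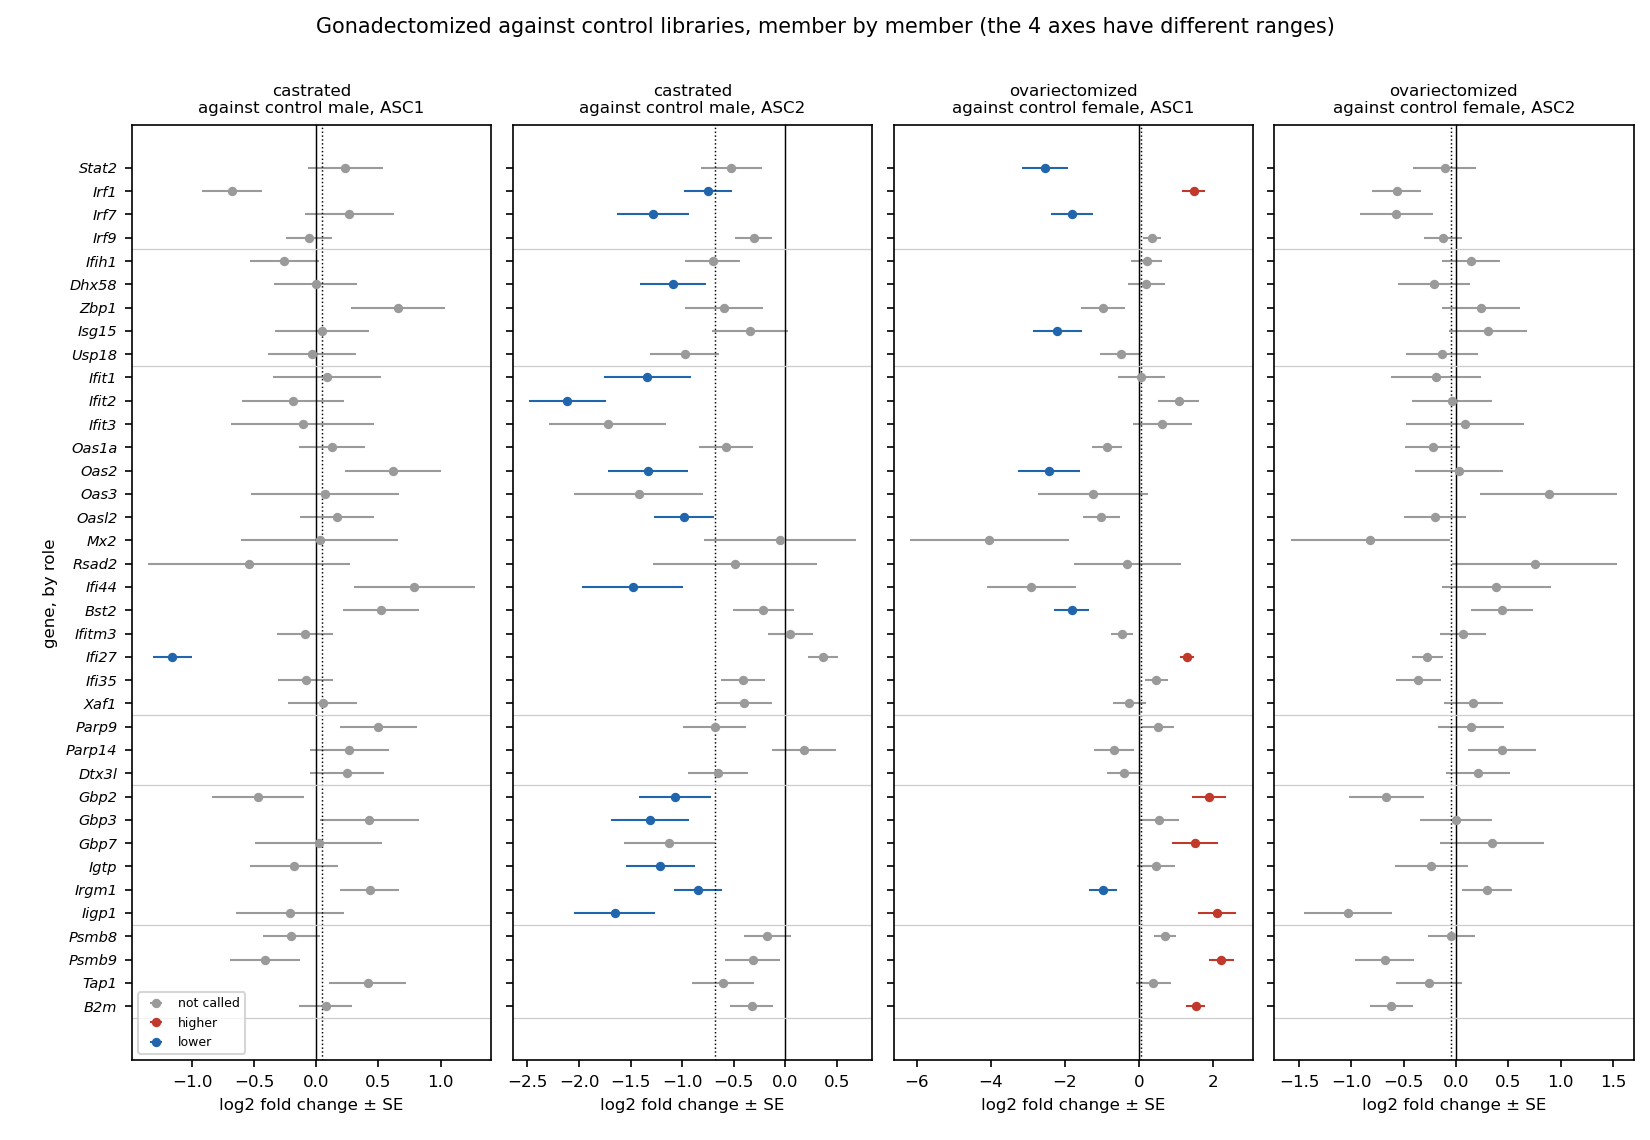
Log2 fold change ± SE of each tested member (rows, by role) for castration and ovariectomy in ASC1 and ASC2; coloured points passed an adjusted p of 0.05 and the dotted line is the median over members. In castrated ASC2 the points lie left of 0 for 34 of 37 members (median -0.69), whereas in ovariectomized ASC1 they spread to both sides, from -4.04 to 2.22.

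After ovariectomy in ASC1, members were called in both directions. Of the 37 members 7 rose and 6 fell, against 12.7% of all genes higher, 22.1% lower and 34.8% in either direction. The share of members called was close to that of all genes, so the count by itself is no result about the members. Of the comparisons between 2 groups this one called the most genes, with 3 libraries in 1 arm. The median of all genes was -0.34 here, that of the members 0.06, a difference of 0.40. The 7 that rose were Irf1, Ifi27, Gbp2, Gbp7, Iigp1, Psmb9 and B2m, and the 6 that fell were Stat2, Irf7, Isg15, Oas2, Bst2 and Irgm1.

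Among those that rose, Psmb9 was between 8.02 and 29.6 CPM (median 18.1) in control female ASC1 and at 85.7 (L), 101 (N) and 68.1 CPM (P) in ovariectomized ASC1. It was 4.67-fold higher (log2 fold change 2.22, SE 0.34, adjusted p = 6.14e-07, edgeR). B2m was between 569 and 1214 CPM (median 948) in control and at 3385 (L), 2579 (N) and 1938 CPM (P) in ovariectomized libraries. It was 2.87-fold higher (1.52, SE 0.27, adjusted p = 7.51e-06). Ifi27 was between 197 and 280.4 CPM in control and at 529 (L), 711 (N) and 619 CPM (P), with 1.30 (SE 0.19, adjusted p = 3.16e-07). All 3 ovariectomized libraries lay above every control for these genes. The 3 calls held under all 5 other settings and when any of the 11 libraries was left out.

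Irf1 was between 23.7 and 70.2 CPM in control and at 181 (L), 82.6 (N) and 92.9 CPM (P) in ovariectomized ASC1, again without overlap (1.48, SE 0.31, adjusted p = 1.41e-04, edgeR). Gbp2 was between 14 and 60.5 CPM in control and at 184 (L), 106 (N) and 55.7 CPM (P), with 1.88 (SE 0.45, adjusted p = 8.28e-04). Iigp1 was between 4.45 and 32.8 CPM in control and at 157 (L), 78.0 (N) and 12.4 CPM (P), with 2.11 (SE 0.52, adjusted p = 0.00105). Libraries L and N were above all controls in both GTPase genes and P within their range. Gbp7 was at 54.9 (L), 36.7 (N) and 12.4 CPM (P) against 0 to 23.7 CPM, and its adjusted p was 0.0470, a call that held under 2 of 5 other settings and in 4 of 11 fits without 1 library. Psmb8 had 0.69 (SE 0.30) and did not pass (adjusted p = 0.0690).

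Among those that fell, Stat2 was between 24.6 and 94.3 CPM (median 57.5) in control and at 5.71 (L), 4.59 (N) and 24.8 CPM (P), which rest on 5, 1 and 4 reads. It was 5.81-fold lower (-2.54, SE 0.62, adjusted p = 9.73e-04, edgeR). Bst2 was between 212 and 1045 CPM in control and at 161 (L), 202 (N) and 211 CPM (P), below all controls (-1.82, SE 0.46, adjusted p = 0.00149). The lowest control library, F, lay just above the highest ovariectomized library. Isg15 was between 64.1 and 269 CPM in control and at 21.7 (L), 64.3 (N) and 24.8 CPM (P), with -2.21 (SE 0.67, adjusted p = 0.00763). Irf7 was between 61.0 and 356 CPM in control and at 51.4 (L), 110.1 (N) and 18.6 CPM (P), with -1.82 (SE 0.57, adjusted p = 0.0105). In both, N lay within the control range. Oas2 had 4, 0 and 1 reads in the 3 libraries (-2.43, SE 0.83, adjusted p = 0.0186). Irgm1 was between 60.5 and 98.2 CPM in control and at 43.4 (L), 50.5 (N) and 24.8 CPM (P), with -0.98 (SE 0.38, adjusted p = 0.0405), and held under 1 of 5 other settings.

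All 3 ovariectomized ASC1 libraries met their label, and so did control female libraries A, E and F. Against these 3 controls, 8 members were called and all 8 were higher, Psmb9 by 3.06 (adjusted p = 4.46e-06), B2m by 1.94 (adjusted p = 1.82e-04), Gbp2 by 2.28, Iigp1 by 1.95, Irf1 by 1.62 and Ifi27 by 1.36 among them. None of the 6 members that fell passed in this setting. Stat2 had -1.57 (adjusted p = 0.0987), Isg15 -1.50 (adjusted p = 0.185), Bst2 -0.94 (adjusted p = 0.184) and Irf7 -0.52 (adjusted p = 0.535). Stat2 was between 24.6 and 32.8 CPM in control libraries A, E and F and between 56.7 and 94.3 CPM in the other 5, and Irf7 between 61.0 and 118 CPM against 125 to 356 CPM. Without ovariectomized library L, 4 members were called, 3 higher and 1 lower, and Irf1, Gbp2 and Iigp1 were not among them. The 8 macrophage markers summed to between 687 and 3476 CPM in control female ASC1 and between 45.7 and 92.9 CPM in ovariectomized ASC1. Among controls they summed to between 687 and 1883 CPM in A, E and F and between 2680 and 3476 CPM in the other 5. Taking label-matched controls alone therefore also took those of fewer macrophage transcripts, and the 2 cannot be told apart. Lyz2 made up most of the sum in control, with medians of 2285 CPM there and 32.1 CPM in ovariectomized ASC1. Adgre1 was at 0 in the latter, while Cd14 was not lower, with medians of 14.3 and 18.6 CPM. Fibroblast markers moved the opposite way from the sum. The 5 mammary epithelial markers were all at 0 in ovariectomized ASC1 and 5 mural cell markers summed to between 180 and 248 CPM there, against at most 82.4 CPM elsewhere. Most of that sum was Kcnj8 and Abcc9, with medians of 86.7 and 91.4 CPM, against 10.6 and 2.77 CPM in control female ASC1. Medians of Rgs5, Cspg4 and Notch3 were 1.14, 11.4 and 18.4 CPM, against 4.64, 5.96 and 10.7 CPM. The 7 lymphocyte and plasmacytoid dendritic cell markers summed to between 11.8 and 32.7 CPM in control and between 9.18 and 51.4 CPM in ovariectomized ASC1, with Nkg7 and Siglech at 0. Of these, Cd79a had 28 reads in ovariectomized and 1 in control libraries (medians 12.4 and 0 CPM), Cd3g 9 and 0 reads, and Cd3e 6 and 3 reads. The part of these in the result was not tested.

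In ASC2, no member was called after ovariectomy by edgeR or by DESeq2, against 0.650% of all genes higher, 1.44% lower and 2.09% in either direction. An unadjusted p below 0.05 was found for 4 members, and the median change was -0.04. The smallest adjusted p was that of B2m, with 637 to 2289 CPM in control and 569 to 1104 CPM in ovariectomized ASC2 (-0.62, SE 0.21, adjusted p = 0.113). The groups overlapped, with 1 ovariectomized library below all controls. Iigp1 and Psmb9 had -1.03 (SE 0.42) and -0.68 (SE 0.28), with adjusted p of 0.220 and 0.224. For Iigp1, 7 of 8 ovariectomized libraries were below every control.

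The ovariectomy effect differed between the populations for 12 members, 6 in each direction, against 22.1% of all genes higher in ASC2, 12.6% lower and 34.8% in either direction. Lower in ASC2 than in ASC1 were the effects on Psmb9 (-2.91, SE 0.44, adjusted p = 5.48e-07), B2m (-2.14), Ifi27 (-1.57), Irf1 (-2.04), Gbp2 (-2.55) and Iigp1 (-3.14). Higher were those on Stat2 (2.43), Isg15 (2.51), Oas2 (2.46), Bst2 (2.26), Irgm1 (1.27) and Ifi44 (3.30, SE 1.32, adjusted p = 0.0442). With label-matched libraries alone 5 of these passed, Irf1, Ifi27, Gbp2, Psmb9 and B2m, and without ovariectomized ASC1 library L there were 6.

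**Figure D4:**
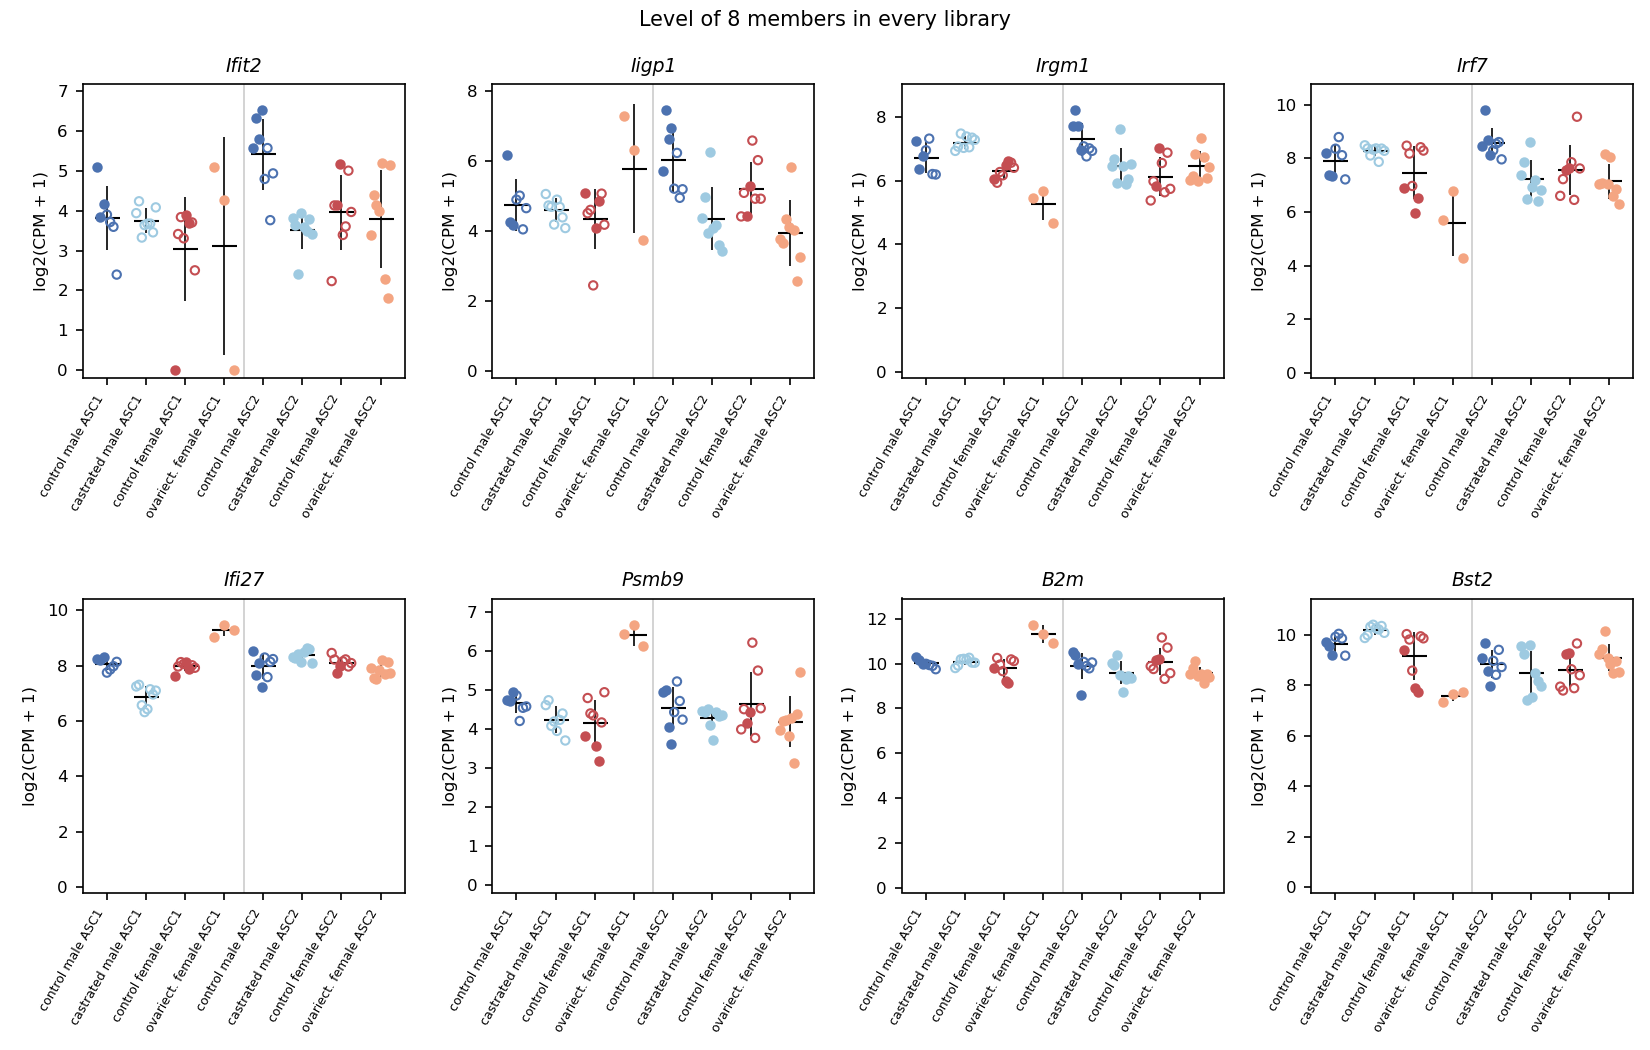
Level of 8 members as log2(CPM + 1) in every library of the 8 groups, with ASC1 left and ASC2 right of the grey line; points are libraries, filled where sex-chromosome transcripts met the label and open where they did not, and black bars are mean ± SD over libraries. Ifit2, Iigp1, Irgm1 and Irf7 have a lower mean in castrated than in control male ASC2, while Psmb9, B2m and Ifi27 have their highest and Bst2 its lowest mean in the 3 ovariectomized ASC1 libraries.

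Control males were compared with control females to see how members differ between the intact sexes. The comparisons in ASC2 of castrated with control males, of males with females and of ASC2 with ASC1 in males share the control male ASC2 libraries, so their values stand side by side and not as independent evidence. In ASC2, 8 members were higher in males and none lower, against 3.63% of all genes higher, 2.87% lower and 6.50% in either direction, with a median over members of 0.61. Irgm1 was between 108 and 298 CPM in males and between 40.7 and 130.3 CPM in females (log2 difference 1.16, SE 0.23, adjusted p = 8.91e-04, edgeR). Ifit2 was between 12.6 and 91.5 CPM in males and between 3.70 and 35.3 CPM in females (1.45, SE 0.35, adjusted p = 0.00586). Oas2 was between 12 and 71.4 CPM in males and between 5.56 and 25.7 CPM in females (1.62, SE 0.40, adjusted p = 0.00714). The groups overlapped for each, with 4, 5 and 6 of 8 male libraries above every female library.

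Usp18 (1.26), Dhx58 (1.18), Gbp3 (1.34), Gbp7 (1.60) and Ifi44 (1.49) were the other 5 (adjusted p = 0.0140, 0.0157, 0.0200, 0.0220 and 0.0485). Usp18 was between 137 and 504 CPM in males and between 61.5 and 176 CPM in females, and Gbp7 between 6.36 and 98.1 CPM and between 3.70 and 25.7 CPM. All 8 male libraries were above the female median of Usp18 and 6 of 8 above that of Gbp7. Without control male library B the calls were 3, Ifit2, Oas2 and Irgm1, and without control female library A they were 5. With label-matched libraries, 4 male and 2 female, no member passed, 12 had an unadjusted p below 0.05 and the median was 0.88, and with male libraries E to H no member passed and the median was 0.22.

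In ASC1, no member was called between control males and females by edgeR or DESeq2, against 0.136% of all genes higher, 0.152% lower and 0.289% in either direction. Differences were above 0 for 35 of 37 members, with a median of 0.47 against 0.01 over all genes, and 12 members had an unadjusted p below 0.05. Only 3 of 7 male and 3 of 8 female libraries met their label here, and no values on these alone are given. Oasl2 had the smallest p, with 80.6 to 229 CPM in males and 41.7 to 126 CPM in females (1.00, SE 0.31, adjusted p = 0.217). Dhx58 had 1.08 (SE 0.35) and Isg15 1.05 (SE 0.39), with adjusted p of 0.270 and 0.364. The sex difference itself was not called different between ASC2 and ASC1 for any member by edgeR or DESeq2, with 4 at an unadjusted p below 0.05. Over all genes 0.0642% were called higher in this test, 0.0642% lower and 0.128% in either direction.

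Between the populations of control males, 4 members were higher in ASC2 than in ASC1 and none was lower, against 6.88% of all genes higher, 5.30% lower and 12.2% in either direction. Ifit2 was between 4.27 and 33.1 CPM in ASC1 and between 12.6 and 91.5 CPM in ASC2 (1.72, SE 0.38, adjusted p = 9.85e-04, edgeR). Iigp1 was between 15.5 and 71.3 CPM in ASC1 and between 29.9 and 175 CPM in ASC2 (1.46, SE 0.41, adjusted p = 0.0115). Usp18 (1.07) and Gbp7 (1.33) had adjusted p of 0.0342 and 0.0497. Groups overlapped for all 4. Label-matched libraries gave 2 calls, Ifit2 and Gbp7, leaving out ASC2 library B gave 1, and leaving out ASC2 library D, or ASC1 library C or D, gave 2. In control females no member was called by edgeR or DESeq2, against 3.54% of all genes higher, 2.58% lower and 6.11% in either direction, and 7 had an unadjusted p below 0.05. The smallest adjusted p was that of Irf1, with 23.7 to 70.2 CPM in ASC1 and 44.4 to 143 CPM in ASC2 (0.71, SE 0.24, adjusted p = 0.0632).

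The rest of the pathway was read from lists of other genes. The 10 interferon ligands in the table had 6 reads in all 58 libraries together, in 5 of the genes, and none was tested. Of 16 receptors, kinases and regulators, 1 rose and 2 fell in castrated ASC2, and 1 rose and 2 fell in ovariectomized ASC1. Over all genes, 2.65% rose and 4.32% fell in the former comparison and 12.7% rose and 22.1% fell in the latter. Of 11 nucleic acid sensors, 1 fell in castrated ASC2, and 1 rose and 4 fell in ovariectomized ASC1, where 34.8% of all genes were called. Ifngr1, the ligand-binding chain of the interferon gamma receptor, rose in ovariectomized ASC1 (1.72, SE 0.28, adjusted p = 1.46e-06, edgeR). In control ASC2, 2 of the receptors and 2 of the sensors were higher in males (3.63% of all genes), Ddx58, which encodes the sensor RIG-I, by 1.02 (SE 0.23, adjusted p = 0.00302).

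Of 52 other interferon-stimulated genes tested, 10 fell and 1 rose in castrated ASC2, with a median of -0.72, and 13 rose and 8 fell in ovariectomized ASC1. The shares over all genes were 2.65% higher and 4.32% lower in castrated ASC2, and 12.7% and 22.1% in ovariectomized ASC1, where the total called was near the 34.8% over all genes. In control ASC2, 9 were higher in males and none lower, against 3.63% and 2.87% of all genes. Ifi205, of the family of interferon-inducible DNA-binding proteins, rose in ovariectomized ASC1 by 3.83 (SE 0.41, adjusted p = 4.56e-11, edgeR). It fell in ovariectomized ASC2 by 2.19 (adjusted p = 5.36e-05) and in castrated ASC2 by 1.55 (adjusted p = 0.00127), and in castrated ASC1 by 1.19 (adjusted p = 0.0427). In ovariectomized ASC2 Ifi204 of the same family was the other gene called, with -0.77 (adjusted p = 0.0398). In ASC1, Ifitm1, a relative of Ifitm3, was higher in castrated than control males (2.55, adjusted p = 0.00617) and lower in control males than females (-3.05, adjusted p = 0.00168). No castrated ASC1 library met the sex in its label. For both Ifitm1 and Ifi205 in castrated ASC1, an effect of castration and a difference in the sex of the cells by these transcripts cannot be told apart.

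Of 22 other antigen presentation genes tested, 14 rose and 2 fell in ovariectomized ASC1, 4 rose and 3 fell in castrated ASC2, and 1 was higher and 4 lower in males of control ASC2. Over all genes these shares were 12.7% and 22.1%, 2.65% and 4.32%, and 3.63% and 2.87%. The MHC class II genes H2-Aa and H2-Ab1, markers of antigen-presenting cells, rose in castrated ASC2 by 2.48 and 1.64 (adjusted p = 5.43e-04 and 0.00172, edgeR), where summed macrophage markers had a higher median and Cd79a a median of 11.5 against 0 CPM. H2-Aa rose as well in ovariectomized ASC1, by 3.36 (adjusted p = 3.67e-06, edgeR), where summed macrophage markers were lower and Cd79a had a median of 12.4 against 0 CPM. In control ASC2, H2-Ab1 and the class I gene H2-Q7 were lower in males, by -1.67 and -1.71 (adjusted p = 0.00144 and 0.00167), and reads of the latter may be shared with its paralogs. Between the populations, the chaperone gene Calr (-0.79), H2-Q7 (-1.86) and Ifi30 (-1.42), a lysosomal thiol reductase gene, were lower in ASC2 of control males (adjusted p = 1.80e-04, 3.39e-04 and 0.00650). In control females Ifi205 was higher in ASC2 (2.38), and Ifitm1 (-2.82) and the peptide-loading gene Pdia3 (-1.19) were lower (adjusted p = 8.59e-07, 1.70e-04 and 0.00477).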

How the data were processed

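Smart-seq3 libraries of sorted ASC1 and ASC2 were measured. The authors deposited raw estimated counts for each gene, the sum of their reads that carry a UMI and those that do not; by the study's methods they came from Salmon 1.9.0 on Gencode transcripts of GRCm39, and libraries with few genes were removed. The submitters' processing notes also name STAR 2.7.10a, FastQC 0.11.9 and MultiQC 1.12. The study's methods note low counts of Y-linked reads in female controls and treat them as weak contamination by male RNA. From the low Sult1e1 and C7 counts of these libraries beside male controls, the authors take the results to be reliable. Their note on this experiment covers female controls, while most libraries found here against their label were labelled male. All 58 columns were mapped to a labelled library. Of the counts above 0, 15.0% were not whole, and all were rounded.

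A gene was tested if over 3 libraries held 5 reads or more of it, in R 4.3.3 with edgeR 4.0.16 (TMM, glmQLFit, glmQLFTest) on all 58 libraries with 1 coefficient for each of 8 groups, with Benjamini-Hochberg adjustment over 12464 genes (threshold 0.05, biological coefficient of variation 35.6%). CPM used TMM-scaled library sizes, and a pseudocount of 1 on the log2 scale. The study's methods name DESeq2 for this experiment, which was run here as an alternative. The members and the gene lists were chosen with earlier results of these data known. Values are given for members called in any comparison and for the 1 or 2 of highest mean CPM in each role, and for at most 3 called genes per comparison of the other pathway lists. Ifit3 was named in addition after its values were seen. Gene symbols were matched by identifier for 12371 of the tested genes, and older symbols such as Ddx58 were used where the table of symbols held those.

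Alternatives were RLE size factors, no count filter, only the groups compared, DESeq2 1.42.0, a block by library letter, and leaving out libraries whose sex-chromosome transcripts went against the label. Leaving out each library of the groups compared in turn (planned for ovariectomized ASC1 alone), and using only control males against the label, were added after the data had been seen. Total counts of 106562 to 1421518 per library limit the precision of low genes. The test was checked on simulated data for castration in ASC2, where 194 of 200 genes changed 4-fold among 12464 were recovered with 8 false calls. The 200 genes were taken above a limit of mean reads, and every gene was simulated independently. The check therefore does not cover genes of few reads, changes below 4-fold or members that move together in a library. No 2 libraries of a group were copies, since the lowest chi-square per gene between them was 1.53. Promoters were read with Python 3.11.15 (pandas 2.3.3) from RefSeq sequences of GRCm38.p6, on which no coordinate of the count files was placed. Figures used matplotlib 3.10.9.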

Additional observations from a re-analysis of the deposited data

Results flagged for a closer look

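There were 266 sets of 4 to 10 libraries, 1 for each tested member and 1 for the mean over members in each group with that many libraries. Of these, 21 (7.89%) held a library whose gap to its neighbour was large for the range of the set (Dixon's test). Chance alone gives about 5%, or 1 in 20. The sets share libraries in which members moved together, so the count was not tested against that share. Several lay in the same libraries. Control male ASC2 library B was far above the rest for Irf7 (891 CPM), Ifih1 (103 CPM) and Zbp1 (204 CPM), and control female ASC2 library G for Irf7 (753 CPM). Castrated ASC2 library L was far above for Usp18 (378 CPM), Ifi44 (31.9 CPM) and Irgm1 (198 CPM), ovariectomized ASC2 library M for Usp18 (288 CPM) and Ifit1 (207 CPM), and castrated ASC1 library I for Tap1 (91.5 CPM).

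Libraries far below their group were F for Irf1 (44.5 CPM) and D for B2m (390.4 CPM) in control male ASC2, and F for Zbp1 (11.2 CPM) in control female ASC2. In castrated ASC2 they were K for Ifit2 (4.35 CPM) and M for Ifitm3 (887 CPM), in castrated ASC1 K for Gbp3 (13.6 CPM), and in ovariectomized ASC2 P for Psmb8 (25.7 CPM). In control female ASC1 they were A for Ifit2 (0 CPM), E for Gbp7 (0 CPM) and D for Iigp1 (4.45 CPM), and in control male ASC1 D for Gbp7 (0 CPM).

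Effects that differed between ASC2 and ASC1 in edgeR's test of the difference, on the log2 scale, were those of castration on Ifit2 (-1.93), Oas2 (-1.95), Irgm1 (-1.27) and Ifi27 (1.52). Castrated libraries of ASC1 and ASC2 also differed in sex-chromosome transcripts, which cannot be told apart from a difference in effect. For ovariectomy they were those on Stat2 (2.43), Isg15 (2.51), Oas2 (2.46), Ifi44 (3.30), Bst2 (2.26), Irgm1 (1.27), Irf1 (-2.04), Ifi27 (-1.57), Gbp2 (-2.55), Iigp1 (-3.14), Psmb9 (-2.91) and B2m (-2.14). The share of members called was close to that of all genes given above, so their count is no result about the members. With label-matched libraries only Irf1, Ifi27, Gbp2, Psmb9 and B2m of these passed. A difference in the sorted cells of ovariectomized ASC1 cannot be told apart from an effect of ovariectomy.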

How the results depend on the processing

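RLE size factors moved no count of called members by over 1.5 times. Without the count filter, the sex comparison in ASC1 had 1 member and the difference of the castration effect 7, which was also 7 with DESeq2. With only the groups compared, castration had 4 members in ASC1 and 4 in ASC2. With label-matched libraries alone, ovariectomy in ASC1 had 8 members, its difference between populations 5, the sex comparison in ASC2 0, and ASC2 against ASC1 in males 2. This setting could not be run for castration in ASC1, for the difference of the castration effect or for the test of 8 groups, since no castrated ASC1 library met its label. With control males against the label only, castration in ASC2 had 0 members, the sex comparison 1 in ASC1 and 0 in ASC2, and ASC2 against ASC1 in males 0, where Gbp7 turned to -0.30. The causes were not tested.

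Leaving out 1 library at a time gave 2 to 15 called members for castration and 3 to 11 for sex in ASC2, and 4 to 14 for ovariectomy in ASC1. It gave 0 to 1 for ovariectomy in ASC2 (1 without ovariectomized library M), 1 to 5 for ASC2 against ASC1 in males and 0 to 1 in females (1 without ASC2 library A, D or F or ASC1 library B). It gave 1 to 9 for the difference of the castration effect, 6 to 13 for that of the ovariectomy effect and 22 to 31 for the test of 8 groups. Castration in ASC1 kept 1 member, and the sex comparison in ASC1 and the difference between the sex comparisons 0. Of 324 values of single members under other settings 249 kept their call, 74 lost it and 1 changed sign, and of 1002 without 1 library 825 kept it, 177 lost it and 0 changed sign.

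Same-letter libraries deviated together in 4 of 7 pairs of control males and 3 of 8 of control females between ASC1 and ASC2 (correlation over 0.1), and in 0 of 8 of castrated males and 0 of 3 of ovariectomized females. Between control males and females they did so in 5 of 7 pairs in ASC1 and 3 of 8 in ASC2. In no set of pairs did every pair pass, so the letters were taken as names only. With the letter as a replicate block, 7 members were called for sex in ASC2, 4 for ASC2 against ASC1 in males, 3 for the difference of the castration effect and 11 for that of the ovariectomy effect, and none in the other comparisons that could be fitted. Castrated and control libraries share no letter, nor do ovariectomized and control, so those comparisons and the test of 8 groups had no such fit. Depth limits the members of few reads, such as Oas2, Oas3, Mx2, Rsad2 and Ifi44, most in the ovariectomized ASC1 libraries N and P.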
